A study of Homo sapiens with 10 samples.

Results

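The interleukin-1 family comprises small cytokines and the natural antagonists that compete with them. Its transcripts were followed here in A253, a human cell line derived from a squamous cell carcinoma of the salivary gland, before and after CRISPR/Cas9 targeting of DUSP1, the dual-specificity phosphatase that switches off MAP kinases. The members were chosen by gene name and comprised 10 of the 58735 genes in the count table: IL1A, IL1B, IL1RN, IL18, IL33, IL36A, IL36B, IL36G, IL36RN and IL37. The remaining locus of the chromosome 2 family cluster, IL1F10, is described beside them.

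RNA-seq counts were available for 3 groups of 2 libraries each. Control cells carried a guide RNA against dTomato, a fluorescent protein gene that human cells lack. Cl1 and Cl10 were 2 single-cell clones carrying a heterozygous deletion of DUSP1 exon 2, made with guides in the flanking introns. In the study's description neither clone showed DUSP1 protein. By the study's methods, all 3 groups also carried Cas9 and had gone through drug selection for both vectors. Each clone stands for a single derivation, so the effect of the deletion and the particular history of that clone cannot be told apart. Nothing in the labels says whether 2 libraries of a group came from separate cultures, so p-values measure the spread between these libraries, which may be technical. Both clones were compared with the same 2 control libraries.

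Members of this family signal through receptors that pair a ligand-binding chain with an accessory chain and recruit MYD88 and IRAK kinases, which activate NF-kappaB and MAP kinases. In stratified epithelia, keratinocytes store IL-1 alpha, IL-33 and the precursor of IL-18 and release them on damage or after cleavage. IL-1 beta requires cleavage by a protease such as caspase-1 before it is active. IL1RN encodes the receptor antagonist of IL-1, and IL36RN the antagonist of the IL-36 agonists. Transcript levels say nothing about cleavage, storage or release of the proteins.

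IL1A and IL1B had the largest fold changes of the tested members in Cl1 and were called lower in both clones, and the sequences just upstream of both genes are shown for that reason. They are given 5′ to 3′ along the gene's own strand, which is the minus strand for both, from RefSeq promoter windows on GRCh38.p14. The stretches stop before the first annotated exon, and capitals mark each motif match described after them.
IL1A, chr2:112784494-112784743: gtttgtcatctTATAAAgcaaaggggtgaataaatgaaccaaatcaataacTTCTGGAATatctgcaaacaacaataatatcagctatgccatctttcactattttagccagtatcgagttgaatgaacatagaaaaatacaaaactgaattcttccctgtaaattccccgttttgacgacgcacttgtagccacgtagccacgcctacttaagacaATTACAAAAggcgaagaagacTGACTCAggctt
IL1B, chr2:112836817-112837029: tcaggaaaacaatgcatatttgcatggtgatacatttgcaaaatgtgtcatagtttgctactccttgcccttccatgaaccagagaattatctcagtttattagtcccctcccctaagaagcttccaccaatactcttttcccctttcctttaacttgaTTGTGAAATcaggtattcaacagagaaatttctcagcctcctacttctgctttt

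Short motifs were searched in the 250 bases before each RefSeq start, and 8 of the 10 members had at least 1 such window. The set of windows held none for IL18 or IL36B. The IL1A stretch held an AP-1 letter match (TGANTCA) 12 bases upstream of its start, in a set in which 6.57% of all 35116 windows hold that motif on either strand. It also held C/EBP letter matches (TTNNGNAAT) at 199 and 33 bases upstream, a motif present in 9.85% of windows, and TATAAA at 239 bases upstream, searched on the sense strand only and present in 6.8% of windows. The window of its other RefSeq start, inside the first exon, added an AP-1 match 55 bases upstream of that start. The IL1B stretch held 1 C/EBP match, 91 bases upstream of the RefSeq start. Neither stretch matched the CRE letters (TGACGTCA, 1.65% of windows) or the NF-kappaB consensus (5.21% of windows). The matches shown do not overlap each other, and a match describes letters rather than binding. The upstream windows of IL33, IL36A, IL36G and IL37 held none of these motifs. IL36RN held 1 C/EBP match, 12 bases upstream of one of its start sites, and the windows of IL1RN held AP-1, TATAAA and C/EBP matches at 223, 30 and 113 bases upstream of their respective starts.

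The libraries held between 47016495 and 70986593 counts. DUSP1 itself (chr5:172768096-172771195, minus strand, hg38) was counted 880 and 591 times in control libraries, 356 and 302 times in Cl1 and 504 and 347 times in Cl10. On the scale of library-size-scaled counts (CPM, TMM-normalised for library composition), its level was 11.99 ± 1.34 (SD, n = 2) in control, 5.72 ± 0.612 in Cl1 and 7.91 ± 0.983 in Cl10, and the groups did not overlap with control. The log2 fold change was −1.07 in Cl1 (edgeR adjusted p = 0.000292) and −0.59 in Cl10 (edgeR adjusted p = 0.0113). Summed squamous epithelial markers (KRT5, KRT14, TP63 and 4 others) lay between 11402.5 and 13274.5 CPM in every library. Summed markers of salivary acinar cells did not exceed 0.426 CPM, so the secretory programme of the tissue of origin was almost absent.

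Of the 10 members, 7 had enough counts to be tested in each comparison, and IL36A, IL36B and IL37 had not. A gene was called changed where it moved by more than 1 on the log2 scale, in either direction, with an adjusted p below 0.05 over all genes tested. In Cl1 against control, IL1A, IL1B and IL33 were called lower and IL36RN higher, 4 of 7 tested members, where 7.54% of the 20153 genes tested were called in either direction, 3.27% lower and 4.27% higher. In Cl10 against control, IL1A, IL1B and IL33 were again called lower and IL1RN higher, beside 13.4% of 19875 genes called, 7.44% lower and 5.98% higher. In Cl10 against Cl1, IL1A, IL1B and IL36G were called higher and IL36RN lower, beside 10.8% of 19818 genes, 4.47% higher and 6.28% lower. By adjusted p alone, 3 members were higher and 3 lower in each clone against control, where 25.1% of genes passed in Cl1 (12.4% higher and 12.8% lower) and 42.5% in Cl10 (20.6% higher and 21.8% lower). Between the clones 5 were higher and 1 lower in Cl10, where 49% of genes passed (24.9% higher and 24.1% lower). Median log2 fold changes of the tested members were −0.602 in Cl1, −0.0314 in Cl10 and 0.403 between the clones, where the medians over all genes were −0.0131, −0.0107 and −0.0012.

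**Figure D1:**
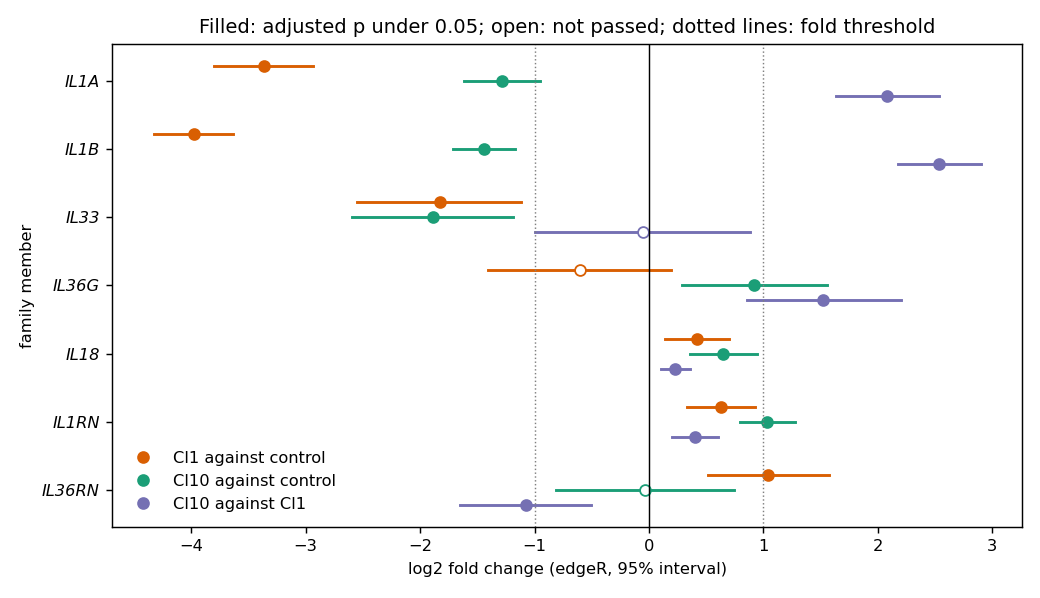
Log2 fold change (x axis) of the 7 tested members (y axis) in each comparison, with points for the edgeR estimate, horizontal lines for its 95% interval, filled points for an adjusted p under 0.05 and dotted lines at the fold threshold. IL1A and IL1B lie left of the threshold in both clones and farther left in Cl1, and IL33 takes nearly the same place in both. Against control, IL36RN has a filled point in Cl1 only and IL36G in Cl10 only.

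IL1B, the secreted agonist that needs proteolytic activation, fell in both clones and had the largest decrease of the tested members in Cl1. It lies at chr2:112829751-112836816 on the minus strand. Counts were 1305 and 984 in control, 76 and 62 in Cl1, and 436 and 304 in Cl10. Every Cl1 library was below every Cl10 library, and every Cl10 library was below both controls. Mean level was 18.8 ± 0.566 CPM (SD, n = 2) in control, 1.20 ± 0.0951 in Cl1 and 6.89 ± 0.794 in Cl10. The decrease was 15.8-fold in Cl1 (log2 fold change −3.98, SE 0.160, edgeR adjusted p = 2.39e-08) and 2.72-fold in Cl10 (−1.44, SE 0.113, edgeR adjusted p = 0.000186). Cl10 held 5.81-fold more than Cl1 (log2 2.54, SE 0.167, edgeR adjusted p = 1.76e-07).

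IL1A encodes the agonist that is active without cleavage and acts from damaged epithelial cells. It lies next to IL1B, at chr2:112773925-112784493 on the minus strand. Counts were 637 and 422 in control, 62 and 36 in Cl1, and 216 and 162 in Cl10. The 3 groups were again fully separated and in the same order as for IL1B. Mean level was 8.63 ± 1.05 CPM (SD, n = 2) in control, 0.827 ± 0.132 in Cl1 and 3.53 ± 0.226 in Cl10. This was a 10.3-fold decrease in Cl1 (log2 fold change −3.36, SE 0.199, edgeR adjusted p = 2.89e-07) and a 2.44-fold decrease in Cl10 (−1.28, SE 0.141, edgeR adjusted p = 0.000612). The clones differed by 4.23-fold (log2 2.08, SE 0.207, edgeR adjusted p = 4.58e-06).

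IL33, a nuclear alarmin that signals through the receptor encoded by IL1RL1, lies outside the cluster at chr9:6215786-6257983 on the plus strand. Counts were 73 and 63 in control, 24 and 13 in Cl1, and 15 and 17 in Cl10. Both clones lay below control, and the libraries of the clones overlapped each other. The level fell from 1.13 ± 0.0735 CPM (SD, n = 2) to 0.310 ± 0.0647 in Cl1 (3.54-fold, log2 fold change −1.83, SE 0.330, edgeR adjusted p = 0.0017) and to 0.305 ± 0.0689 in Cl10 (3.69-fold, −1.88, SE 0.299, edgeR adjusted p = 0.00272). Between the clones the log2 difference was −0.06, with a 95% interval from −0.996 to 0.884 (edgeR adjusted p = 0.927), so a difference close to the fold threshold in either direction was not excluded by these counts.

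**Figure D2:**
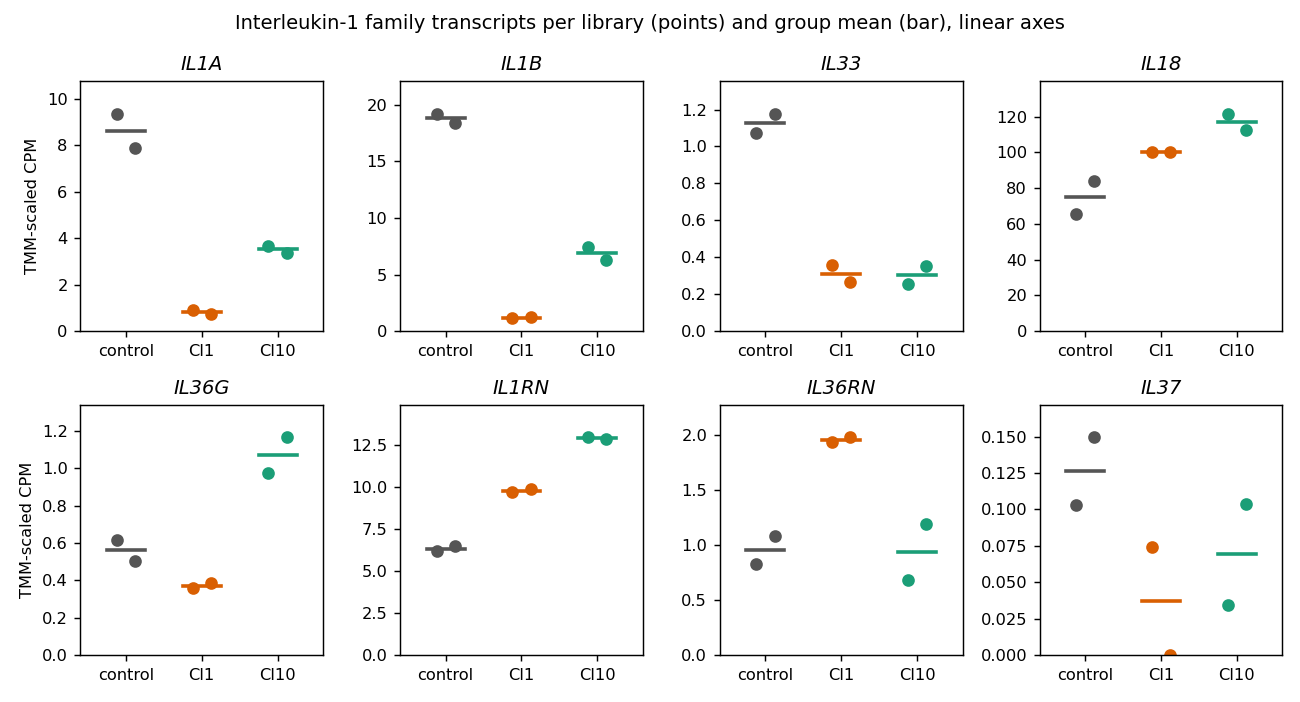
TMM-scaled CPM (y axes, linear and starting at 0, each with its own range) of 8 members in control, Cl1 and Cl10, with a point per library and a bar at the group mean. IL1A and IL1B step down from control to Cl10 to Cl1, IL1RN and IL18 step up from control to Cl1 to Cl10, and IL36RN is highest in Cl1, at 1.93 and 1.98 CPM.

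IL1RN, the antagonist that occupies the IL-1 receptor without signalling, moved the other way. It lies at the far end of the cluster, chr2:113099315-113134016, plus strand. Counts were 420 and 345 in control, 653 and 483 in Cl1, and 757 and 616 in Cl10. In CPM the groups were tight and separated, at 6.31 ± 0.192 (SD, n = 2) in control, 9.76 ± 0.101 in Cl1 and 12.9 ± 0.0824 in Cl10. The increase was 1.55-fold in Cl1 (log2 fold change 0.63, SE 0.137, edgeR adjusted p = 0.00538), under the fold threshold, and 2.05-fold in Cl10 (1.03, SE 0.102, edgeR adjusted p = 0.000406), just over it, and 0.99 without control replicate 1. Cl10 exceeded Cl1 by 0.40 on the log2 scale (edgeR adjusted p = 0.00284). Counted at gene level, the secreted and intracellular forms of the antagonist, which start from different promoters, could not be separated.

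IL36RN, which blocks the IL-36 receptor, lies at chr2:113058638-113065382 on the plus strand. Counts were 56 and 58 in control, 130 and 97 in Cl1, and 40 and 57 in Cl10. Cl1 lay above the other 4 libraries, which overlapped. Levels were 0.954 ± 0.184 CPM (SD, n = 2) in control, 1.95 ± 0.0323 in Cl1 and 0.934 ± 0.355 in Cl10. The increase in Cl1 was 2.06-fold (log2 fold change 1.04, SE 0.245, edgeR adjusted p = 0.00831). It fell below the fold threshold, to 0.85, without control replicate 1 and, to 0.97, when library size alone set the scale. In Cl10 the log2 difference from control was −0.03, with a 95% interval from −0.81 to 0.75 (edgeR adjusted p = 0.948). Cl10 lay below Cl1 by a log2 fold change of −1.08 (SE 0.265, edgeR adjusted p = 0.00469), and without Cl10 replicate 1 this was −0.71 with an edgeR adjusted p of 0.0575.

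IL36G, an IL-36 agonist typical of inflamed squamous epithelium, lies at chr2:112973203-112985658 on the plus strand. Counts were 42 and 27 in control, 24 and 19 in Cl1, and 57 and 56 in Cl10. Libraries of all 3 groups were separated in CPM, with Cl1 lowest and Cl10 highest, at 0.561 ± 0.0799 (SD, n = 2) in control, 0.372 ± 0.0217 in Cl1 and 1.07 ± 0.135 in Cl10. Against control, Cl1 did not pass the test (log2 fold change −0.60, 95% interval −1.40 to 0.19, edgeR adjusted p = 0.258). Cl10 passed it under the fold threshold (0.92, SE 0.268, edgeR adjusted p = 0.0299), but not with DESeq2 (adjusted p = 0.118) or without Cl10 replicate 2 (edgeR adjusted p = 0.153). The 2 clones differed from each other by 2.88-fold (log2 1.52, SE 0.311, edgeR adjusted p = 0.00133). A pseudogene, HMGN2P23, overlaps the locus on the other strand and held at most 1 count in any library.

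IL18, the substrate of caspase-1 that acts on lymphocytes through IL18R1, was by far the most abundant member. It lies at chr11:112143253-112164096 on the minus strand. A protein-coding gene on the other strand, AP002884.3, overlaps the locus and held 0 counts in every library. How reads in the overlap were assigned is not stated. IL18 counts were 4476 and 4500 in control, 6735 and 4909 in Cl1, and 7124 and 5408 in Cl10. Levels were 75.0 ± 12.9 CPM (SD, n = 2) in control, 99.97 ± 0.00385 in Cl1 and 117 ± 6.5 in Cl10, and the groups did not overlap. The rise was 1.34-fold in Cl1 (log2 fold change 0.42, SE 0.129, edgeR adjusted p = 0.032) and 1.57-fold in Cl10 (0.65, SE 0.124, edgeR adjusted p = 0.00594). The control libraries stood at 65.8 and 84.1 CPM, and the Cl1 estimate was 0.25 without control replicate 1 (edgeR adjusted p = 0.0647) and 0.61 without control replicate 2. It also missed the test without Cl1 replicate 1 (edgeR adjusted p = 0.169), without Cl1 replicate 2 (0.157) and with library size alone (0.0603). The difference between the clones was 0.23 (edgeR adjusted p = 0.00653). It was 0.03 (adjusted p = 0.756) once the median of the 50 nearest tested genes on chromosome 11 was subtracted, and it missed the test without Cl10 replicate 1 (edgeR adjusted p = 0.199) and in 1 fit over all 6 libraries (0.137).

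The other 3 members were near the detection limit. A count of 3, the limit that a count of 0 allows, corresponded to between 0.0423 and 0.0638 CPM in these libraries, for counting error only. IL37, a cytokine that dampens inflammation, was counted 7 and 8 times in control, 5 and 0 times in Cl1, and 2 and 5 times in Cl10. IL36A and IL36B, agonists of the IL-36 receptor, were counted at most 1 time in any library. IL1F10, which encodes IL-38, was counted 1 and 4 times in control, 16 and 7 times in Cl1, and 7 times in each Cl10 library, too few to be tested.

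All 7 tested members had libraries of Cl1 and control that did not overlap, a property of 63.6% of all genes in that comparison. Between Cl10 and control 6 did not overlap, beside 73.8% of genes, and between the clones 6, beside 74.8%. With 2 libraries a group, separation alone was therefore common in these data and was not peculiar to the family.

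Divided by exon length, the order of the members could be compared within a group. In control cells mean levels in CPM per kilobase were 28.8 for IL18, 6.25 for IL1B, 4.28 for IL1A and 1.69 for IL1RN, followed by IL36G, IL33, IL36RN and IL37, all at 0.409 or less. Only IL33 and IL36RN overlapped between neighbours in this order. In Cl1, IL1RN stood second at 2.61 and IL36RN next at 0.608, ahead of IL1A at 0.410 and IL1B at 0.397, which overlapped each other. In Cl10 the order was IL18, IL1RN, IL1B, IL1A, IL36G, IL36RN, IL33 and IL37, and only IL33 and IL37 overlapped. In both clones, then, the IL-1 antagonist transcript outranked each IL-1 agonist transcript, and in control cells it ranked below both.

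The balance of agonist and antagonist transcripts followed from these levels. The ratio of IL1A plus IL1B to IL1RN, per kilobase, was 6.66 and 5.80 in control libraries, 0.320 and 0.297 in Cl1, and 1.24 and 1.10 in Cl10. Per kilobase, the summed agonists exceeded the antagonist in control, slightly in Cl10, and fell short of it in Cl1. Each length was the union of all annotated exons, 2017 bases for IL1A, 3009 for IL1B and 3734 for IL1RN. Undivided, mean levels in Cl10 were 3.53 CPM for IL1A, 6.89 for IL1B and 12.9 for IL1RN. The side of 1 on which Cl10 fell therefore depended on these lengths. For the IL-36 pair, the ratio of IL36G to IL36RN was 1.75 and 1.09 in control, 0.431 and 0.458 in Cl1, and 3.33 and 2.30 in Cl10. This second ratio was lowest in Cl1 but highest in Cl10. IL1A and IL1B together made up 28.2% and 22.1% of the summed family level in control, 1.94% and 1.83% in Cl1 and 7.75% and 7.28% in Cl10. IL18 made up between 64.6% and 71.3% in control, 89.5% and 89.7% in Cl1, and 84.1% and 83.3% in Cl10. These ratios were not tested, since an exact permutation test of 2 against 2 libraries cannot go below p = 0.333.

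**Figure D3:**
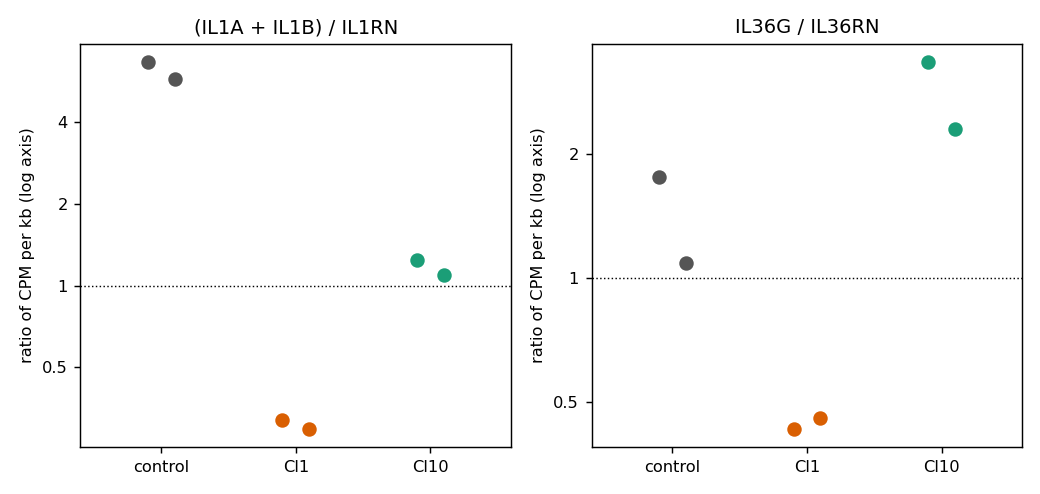
Ratio of agonist to antagonist transcripts in CPM per kilobase (y axes, log scale) in each library of control, Cl1 and Cl10, for IL1A plus IL1B over IL1RN (left) and IL36G over IL36RN (right), with a dotted line at equal levels. The left ratio is above the line in control, near it in Cl10, at 1.24 and 1.10, and near 0.3 in Cl1. The side of the line for Cl10 depends on the exon lengths used. The right ratio separates Cl1, at 0.431 and 0.458, from Cl10, at 3.33 and 2.30.

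The cluster on chromosome 2 holds 9 family genes, counting IL1F10, within 360.1 kb, between positions 112773925 and 113134016. IL1A and IL1B at one end fell in both clones and IL1RN at the other rose. Neighbours were the 5 nearest protein-coding genes on each side that were tested in both clones against control. Their log2 fold changes had medians of −0.205 (Cl1) and 0.0363 (Cl10). On the IL1A side, SLC20A1, a phosphate transporter gene, fell in both clones (−0.89 in Cl1, edgeR adjusted p = 0.000124, and −0.67 in Cl10, edgeR adjusted p = 0.0011). CKAP2L, a mitotic spindle gene and the nearest of these neighbours on that side, fell by 0.89 on the log2 scale in Cl1 (edgeR adjusted p = 0.000166). It stood at −0.13 in Cl10 (edgeR adjusted p = 0.289). On the IL1RN side, PSD4 rose by 0.61 in Cl1 (edgeR adjusted p = 0.00223) and 0.95 in Cl10 (edgeR adjusted p = 0.000385). The decreases of IL1A and IL1B were larger than those of any of these 10 neighbours in either clone, while the rise of IL1RN was close to that of PSD4 beside it.

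A list of 11 receptors and decoys of the family, chosen with earlier results of these data known, was examined next. Of these, 9 were tested. In Cl1, IL1R2 and IL1RL1 were called lower and none higher, beside 3.27% of all genes called lower and 4.27% higher. In Cl10, IL1R1 was called higher and none lower, beside 5.98% of all genes called higher and 7.44% lower. The list median was −0.038 in Cl1 and 0.273 in Cl10. IL1R2, a decoy that binds IL-1 without signalling, stood at 13.1 and 15.6 CPM in control, 2.82 and 2.75 in Cl1, and 23.3 and 25.5 in Cl10. It thus fell in Cl1 (log2 fold change −2.36, edgeR adjusted p = 7.16e-07) and rose in Cl10 (0.77, edgeR adjusted p = 0.00191), and the clones differed by 3.13 (edgeR adjusted p = 8.17e-10). IL1R1, the signalling receptor of IL-1, rose by 0.65 in Cl1 (edgeR adjusted p = 0.00447) and 1.13 in Cl10 (edgeR adjusted p = 0.000196).

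IL1RL1, the IL-33 receptor, was low throughout, at 0.265 and 0.336 CPM in control, 0.0445 and 0 in Cl1, and 0.529 and 0.645 in Cl10, with log2 fold changes of −3.44 (edgeR adjusted p = 0.00659) and 0.97 (edgeR adjusted p = 0.0579). The fitted value in Cl1 depends on the prior count. IL18R1, the IL-18 receptor chain, fell in Cl1 (−0.94, edgeR adjusted p = 0.00123) and in Cl10 (−0.45, edgeR adjusted p = 0.0284). IL18BP, a secreted trap for IL-18, rose by 0.59 (edgeR adjusted p = 0.0436) and 0.66 (edgeR adjusted p = 0.0348). IL1RAP, the accessory chain shared by several of these receptors, fell in Cl10 (−0.43, edgeR adjusted p = 0.00879) and was at 0.14 in Cl1 (edgeR adjusted p = 0.411), and the clones differed by −0.56 (edgeR adjusted p = 1.3e-05). IL1RL2, the IL-36 receptor, SIGIRR, an inhibitory receptor, and IL1RAPL1 did not pass in either clone, and IL18RAP and IL1RAPL2 had too few counts.

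Genes of cleavage and release were examined in the same way. Of 29 listed inflammasome, caspase, gasdermin and calpain genes, 19 were tested in Cl1, with 1 called lower and none higher. For Cl10, 18 were tested, with 2 called lower and none higher. Over all genes, 3.27% were called lower and 4.27% higher in Cl1, and 7.44% and 5.98% in Cl10. By adjusted p alone the list split into 3 higher and 6 lower in Cl1, beside 12.4% and 12.8% of all genes. In Cl10 the split was 4 higher and 6 lower, beside 20.6% and 21.8%. GSDME, a pore-forming gasdermin, was lower in both clones, at 47.0 and 50.4 CPM in control, 17.6 and 19.9 in Cl1 and 7.86 and 7.90 in Cl10 (log2 fold changes −1.37, edgeR adjusted p = 5.05e-06, and −2.62, edgeR adjusted p = 1.45e-05). The other call in Cl10 was GSDMB (−1.25, edgeR adjusted p = 0.000196), named after its value was seen. CASP1, whose product cleaves the precursors of IL-1 beta and IL-18, stood at 14.6 and 18.3 CPM in control, 10.8 and 11.97 in Cl1 and 13.9 and 15.5 in Cl10. It fell in Cl1 (−0.52, edgeR adjusted p = 0.0168) and was at −0.16 in Cl10 (edgeR adjusted p = 0.371). NLRP3, the sensor typical of myeloid cells, had too few counts, and NLRP1, the sensor typical of keratinocytes, fell by 0.48 (edgeR adjusted p = 0.0131) and 0.62 (edgeR adjusted p = 0.00224). The 3 genes higher in Cl1 also passed higher in Cl10, and were named after their values were seen. They were CAPN1 (0.74, edgeR adjusted p = 0.00159, and 0.56, edgeR adjusted p = 0.00219), CAPN2 (0.80, edgeR adjusted p = 0.000397, and 0.73, edgeR adjusted p = 0.00058) and GSDMC (0.41, edgeR adjusted p = 0.0147, and 0.64, edgeR adjusted p = 0.000985).

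None of the 18 tested signalling genes was called in either clone, beside 7.54% of all genes in Cl1 and 13.4% in Cl10. By adjusted p alone 3 were higher and none lower in Cl1, beside 12.4% and 12.8% of all genes. In Cl10, 7 were higher and 4 lower, beside 20.6% and 21.8%. MYD88, the adaptor shared by these receptors, rose in both (0.45, edgeR adjusted p = 0.0127, and 0.69, edgeR adjusted p = 0.000684), and so did TOLLIP, an inhibitory partner of IRAK1 (0.60, edgeR adjusted p = 0.00186, and 0.70, edgeR adjusted p = 0.000858). The remaining Cl1 gene was PELI2, a Pellino ubiquitin ligase (0.93, edgeR adjusted p = 0.000647). These 3 genes were named after their values were seen.

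A list of 36 genes known to be induced by IL-1 or IL-36 in epithelia, 35 of them in the count table, did not move in one direction in Cl1. Of 23 tested, 4 were called higher and 4 lower, with a median of −0.085, beside 4.27% of all genes called higher and 3.27% lower. In Cl10, 10 of 26 were called higher and 1 lower, with a median of 0.44, beside 5.98% and 7.44% of all genes. Those higher in Cl10 included MMP3, CSF2, SAA1 and LCN2, at low means of 0.098, 0.146, 0.225 and 0.311 CPM. The others were MMP1, S100A9, PI3, CXCL8, S100A8 and ICAM1, each at a mean above 1 CPM. The 4 lower genes in Cl1 were PTGS2, TNFAIP3, CXCL2 and TNF, and the 4 higher were S100A9, LCN2, CXCL1 and S100A8. TNF was low throughout, at 0.191 and 0.187 CPM in control. In Cl1 it stood at 0.0148 and 0.0204 CPM, under the level of a count of 3. CXCL2 had a mean of 0.776 CPM. In Cl10 the lower gene was PTGS2. PTGS2 was called lower in both clones, and S100A9, S100A8 and LCN2 were called higher in both, LCN2 at a mean of 0.311 CPM and the others above 1 CPM.

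PTGS2, the inducible cyclooxygenase, stood at 15.4 and 9.07 CPM in control, 1.54 and 1.20 in Cl1 and 0.478 and 0.790 in Cl10. It fell by 3.14 in Cl1 (log2 scale, edgeR adjusted p = 3.52e-06) and 4.29 in Cl10 (edgeR adjusted p = 0.000196). S100A9 and S100A8, the subunits of calprotectin, rose in both clones. S100A9 went from 8.93 and 11.3 CPM in control to 63.8 and 79.2 in Cl1 and 25.02 and 21.2 in Cl10 (log2 fold changes 2.83, edgeR adjusted p = 1.53e-07, and 1.20, edgeR adjusted p = 0.000804). S100A8 rose by 1.41 (edgeR adjusted p = 0.000288) and 1.18 (edgeR adjusted p = 0.00165). The NF-kappaB feedback gene TNFAIP3 went in opposite directions, by −1.21 in Cl1 (edgeR adjusted p = 7.97e-05) and 0.52 in Cl10 (edgeR adjusted p = 0.0179), a difference of 1.73 between the clones (edgeR adjusted p = 1.83e-08).

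**Figure D4:**
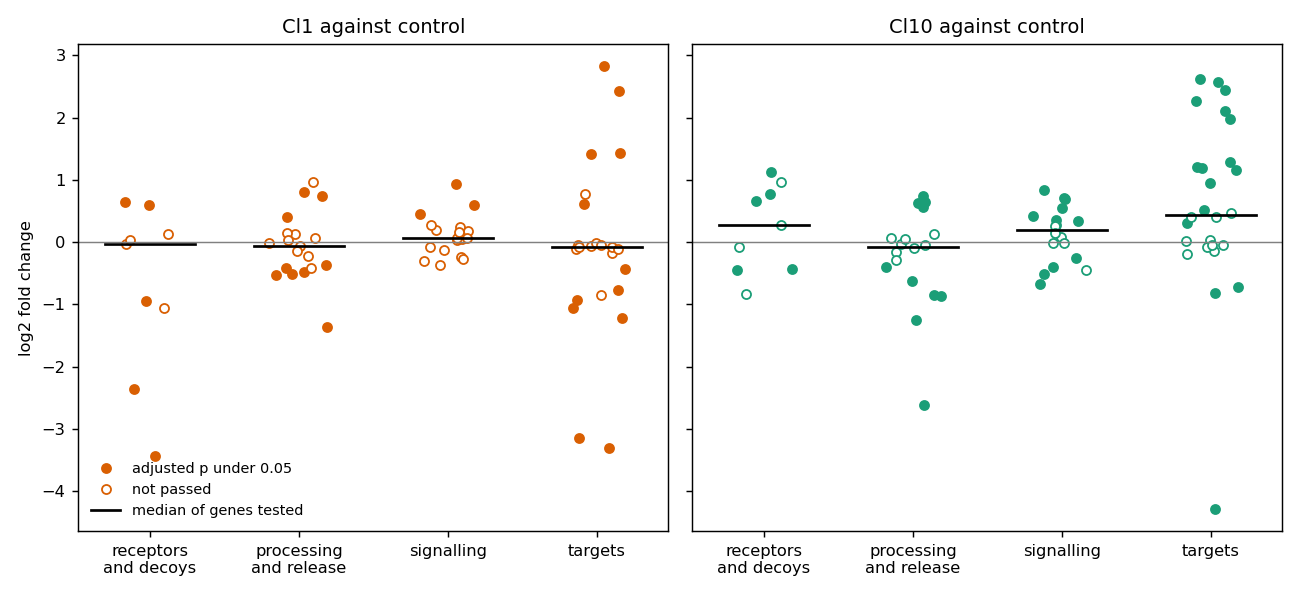
Log2 fold change (y axis) of each tested gene on 4 pathway lists (x axis) in Cl1 (left) and Cl10 (right) against control, filled where the adjusted p was under 0.05, with a black line at the list median. Signalling genes stay within the fold threshold in both panels, and the targets spread both ways in Cl1 (median −0.085) and mostly upward in Cl10 (median 0.44).

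Of 22 listed terminal differentiation genes of keratinocytes, 7 of 19 tested were called higher and 1, KLK7, lower in Cl1 (median 0.62), beside 4.27% of all genes called higher and 3.27% lower. In Cl10, 6 of 18 were called higher and none lower (median 0.33), beside 5.98% and 7.44%. The study had already reported IVL, KRT1 and FLG as raised in these clones, and the list was chosen with earlier results of these data known. The shares therefore describe the list and are not an independent test. By adjusted p alone, 11 were higher and 3 lower in Cl1, beside 12.4% and 12.8% of all genes. In Cl10, 7 were higher and 2 lower, beside 20.6% and 21.8%. TGM1 and KLK5 passed in opposite directions in the clones, with log2 fold changes of 0.60 and −0.83 for TGM1 and −0.86 and 2.48 for KLK5, named after their values were seen. IVL, a precursor of the cornified envelope, rose from 0.368 and 0.542 CPM to 5.997 and 7.07 in Cl1 and 10.3 and 10.9 in Cl10 (log2 fold changes 3.86, edgeR adjusted p = 3.74e-07, and 4.56, edgeR adjusted p = 2.85e-05). KRT1, a suprabasal keratin, rose by 3.44 (edgeR adjusted p = 2.26e-06) and 5.10 (edgeR adjusted p = 2.43e-05). KRT10, on the same list at a mean of 34.7 CPM and named after its value was seen, did not rise in Cl1. It was at −0.36 there (edgeR adjusted p = 0.0392) and at 0.10 in Cl10 (edgeR adjusted p = 0.568). FLG, which encodes filaggrin, rose by 1.39 and 1.99 (edgeR adjusted p = 0.00842 and 0.00215), and SPRR1A, another envelope precursor, by 1.14 and 1.87 (edgeR adjusted p = 0.000289 and 0.000187). In bulk RNA, fewer cells of a type and less RNA per cell cannot be told apart, so a shift in the share of differentiating cells and a change within each cell would look the same for the family members too.

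Leukocytes also express several members, so their markers were summed. The 8 myeloid markers summed to between 8.25 and 9.29 CPM in control, 14.5 and 17.5 in Cl1, and 13.2 and 14.7 in Cl10, mostly from CD14 and ITGAM. TYROBP, a defining myeloid gene, was at 0 in all 6 libraries. Of the 4 myeloid markers tested, 1 was called higher and none lower in each clone, beside 4.27% of all genes called higher in Cl1 and 5.98% in Cl10. The 6 lymphocyte markers summed to at most 1.01 CPM. Summed fibroblast markers lay between 18.7 and 32.2 CPM, carried by COL1A1 with LUM at 0 in every library, and summed endothelial markers between 2.77 and 8.19 CPM, carried by VWF with KDR at 0 in every library. The part of these marker levels in the changes of the family was not tested.

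Genes whose pattern over the 6 libraries was most like that of a member called against control, at a mean of at least 1 CPM, were ranked by Pearson's r of log2 CPM among 14887 genes, as a description only, since all points share 3 cell populations and their library scaling. The closest to IL1A was DUSP4, another MAP kinase phosphatase (r = 0.9989), at 38.8 and 33.8 CPM in control, 14.2 and 12.9 in Cl1, and 24.9 and 24.3 in Cl10. CDC25B (r = 0.997) and FAM155B (r = 0.9965) followed. IL1B was closest to LARP1B (r = 0.9972), RFX3 (r = 0.9968) and CDC25B (r = 0.9964). Among the genes closest to IL1RN were OLFML3 (r = 0.9988) and TMEM38A (r = 0.9985), and IL36RN was closest to INTS13 (r = 0.99), AC100757.1 (r = 0.985) and ATP6V0C (r = 0.9825). Such values were common with 6 points, since 287 genes exceeded r = 0.95 with IL1A, 287 with IL1B, 616 with IL1RN and 11 with IL36RN. DUSP4 had log2 fold changes of −1.42 in Cl1 (edgeR adjusted p = 6.1e-06) and −0.55 in Cl10 (edgeR adjusted p = 0.00357).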

How the data were processed

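RNA was extracted from A253 cells, poly(A)-selected and sequenced as paired reads. The authors deposited raw counts per gene, made with HISAT2 on hg38 and HTSeq. The submitters' processing notes also name StringTie and DESeq. The annotation release, the strand setting of the counting and the treatment of multimapping reads are not given in the sources used here, and the kit is named differently in the labels and the methods. Without a strand setting, reads of a gene and an antisense partner cannot be told apart. A further 4 libraries, from the SOX2 experiment, were left out.

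Counts were tested gene by gene with edgeR 4.0.16 (R 4.3.3, filterByExpr, TMM, quasi-likelihood test, Benjamini-Hochberg adjustment over all genes tested), within the groups compared and without covariates. DESeq2 1.42.0, other scalings, filters, a replicate block, leaving out each library and a local median were tried as alternatives. Total counts of 47016495 to 70986593 per library set the precision. CPM per kilobase used GENCODE 44 exon lengths, the union of all annotated exons of a gene. Positions are from that annotation. Calls required a change of over 1 on the log2 scale together with an adjusted p below 0.05. The fit was tested on simulated data.

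The members, gene lists and tests were chosen with earlier results of these data known. Named genes were every member, IL1F10, DUSP1, the receptors, up to 5 genes a list called the same way in both clones at a mean of at least 1 CPM, and the 3 genes most like each member called against control at a mean of at least 1 CPM, which left out IL33. Of these genes 1 is not reported here. The 50 nearest tested genes set the local median. CASP1, NLRP1, NLRP3, MYD88, TOLLIP, PELI2, GSDMB, TNFAIP3 and the other list genes outside that rule, the neighbours of the cluster and the C/EBP motif were chosen after values or sequences were seen. Log2 CPM for likeness used a prior count of 2.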

Additional observations from a re-analysis of the deposited data

Results flagged for a closer look

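Of the 7 tested members, 6 differed between the clones in the direct edgeR comparison of Cl10 with Cl1, which equals the difference of their effects against the shared control libraries. IL1A was higher in Cl10 by 2.08 on the log2 scale (edgeR adjusted p = 4.58e-06). IL1B was higher by 2.54 (edgeR adjusted p = 1.76e-07). IL36G was higher by 1.52 (edgeR adjusted p = 0.00133). IL36RN was lower, with a log2 fold change of −1.08 (edgeR adjusted p = 0.00469). IL1RN and IL18 were higher by 0.40 and 0.23, both under the fold threshold (edgeR adjusted p = 0.00284 and 0.00653). In this comparison 49% of all genes tested passed an adjusted p under 0.05. No group had enough libraries for a test of single outlying libraries.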

How the results depend on the processing

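The fold changes of IL1A, IL1B and IL33 against control kept their direction and their call under all 12 alternatives in both clones. The number of members called was 4 in each comparison and ranged from 3 to 4 in Cl1 (3 with library size only or without control replicate 1), 4 to 5 in Cl10 (5 with the local median subtracted or without Cl10 replicate 1) and 3 to 4 between the clones (3 without Cl10 replicate 1), when each library was left out in turn or the fit was changed, and it was 6 by adjusted p alone. Leaving out a library leaves an arm with 1, which is assumed to vary like the others. By adjusted p alone, 5064, 8439 and 9706 genes passed in Cl1, Cl10 and between the clones, beside 1520, 2667 and 2131 with the fold threshold. Of the differences that did not pass the test, IL36G in Cl1 against control kept its sign in all alternatives, from −0.731 to −0.332. The others changed sign. IL36RN in Cl10 against control ranged, with 1 library left out, from −0.468 (without Cl10 replicate 2) to 0.332 (without Cl10 replicate 1), with 0.161 without control replicate 2. It was 0.136 with the local median subtracted. IL33 between the clones was 0.0204 with library size only and −0.397 with the local median subtracted. With 1 library left out IL33 ranged from −0.286 (without Cl10 replicate 2) to 0.19 (without Cl1 replicate 1), with 0.175 without Cl10 replicate 1. IL1RN in Cl10 was 0.99 without control replicate 1, under the fold threshold, and IL36G in Cl10 was over it at 1.07 without control replicate 1, 1.05 without Cl10 replicate 1 and 1.09 with the local median subtracted. The adjusted p of IL18 was under 0.05 in 9 of 13 settings in Cl1 and 10 of 13 between the clones. The cause of these shifts was not tested.

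Deviations of same-numbered libraries were nearly uncorrelated between groups, at −0.0682, −0.0181 and 0.0101 over 20582 genes. No large effect shared by replicate number was seen, but such correlations cannot tell whether the libraries were paired. With the replicate block, 1587, 2857 and 2163 genes were called, and the number of members called stayed at 4 in each comparison. With 13 to 73 counts a library, IL33 is measured less precisely than IL18, as the standard errors show.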
